A study of Mus musculus with 21 samples.

Results

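Expression of 10 genes that interferon switches on in most cell types was followed through mouse bone marrow differentiation, from multipotent progenitors to mature erythroid and myeloid cells. The genes were Isg15, Usp18, Ifit1, Ifit2, Ifit3, Oasl2, Rsad2, Rtp4, Ifi44 and Ifitm3. They were chosen by name, as the probes whose RefSeq accession maps to those symbols, with no use of their levels in the rule, although the set was put together with earlier results of these data known. All 10 had a probe, out of 18217 gene symbols with a probe on the array, and all 10 passed the filter on dim probes and were tested. Where a gene had several probes (3 for Rsad2 and 2 for Ifit2), the brightest was used.

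Interferons are secreted proteins that cells release on sensing foreign nucleic acid. Type I interferons bind the receptor Ifnar1/Ifnar2, the kinases Jak1 and Tyk2 are then activated, and a complex that holds Stat2 and Irf9 binds a short promoter motif, the interferon-stimulated response element (ISRE). Interferon gamma acts through Ifngr1/Ifngr2 and on another motif, the gamma-activated site (GAS). The proteins made in response block viral entry, translation and replication, and some of them also limit the signal itself. In bone marrow, type I interferon is known to be able to drive quiescent stem cells into division.

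Total RNA from sorted C57BL/6 bone marrow was measured on 21 arrays, 3 for each of 7 fractions, and the labels name no treatment and no age. All fractions short of maturity were lineage-negative (B220, CD3, CD4, CD8, CD41, Mac1, Gr1 and Ter119) and are labelled ckit+ sca1+. KLS, the most immature, carries no further marker. PreMegE is labelled CD150+ CD105- FcγR-, and GMP CD150- FcγR+. CFUe and PreGM carry identical labels, CD150- CD105- FcγR-, so only their names tell them apart. Ter119 cells were CD71+ Ter119+ and Mac1Gr1 cells Mac1+ Gr1+. The steps compared run from KLS through PreMegE and CFUe to Ter119 (the erythroid side) and from KLS through PreGM and GMP to Mac1Gr1 (the myeloid side). The labels do not say whether the 3 arrays of a fraction came from separate animals, so p values measure the spread between arrays, which may be technical. In CFUe and PreGM the arrays differed in Xist (values below), so there the spread is not technical alone.

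Levels are log2 intensities from which the 75th percentile of the array was subtracted, so that 0 is that percentile and 1 unit is 2-fold. The number of arrays limits the precision. Calls required both an adjusted p below 0.05 and a 2-fold change or more. Between 56.4% and 77.4% of probes were well above background on an array, and arrays correlated across probes at 0.9766 to 0.9927 within fractions and 0.6448 to 0.9639 between them. Stem cell markers (9 probes) summed to between 59.2 and 65.7 times the 75th percentile in KLS, above every other fraction. Ly6a, which encodes Sca1, was at 2.57 in KLS but at -3.14 in PreMegE and -5.81 in CFUe, against their labels. Erythroid markers (9 probes) summed to between 3420 and 4380 times the 75th percentile in Ter119 and to between 9.08 and 12.4 times in Mac1Gr1. Granulocytic markers (12 probes), however, summed to between 4720 and 5940 times in Ter119, close to the 5450 to 6110 times in Mac1Gr1, against 5.39 to 41.4 times in CFUe. B cell markers (7 probes) were also highest in Ter119, with sums from 112 to 160 against 25.3 to 45.1 in Mac1Gr1. Monocyte and macrophage markers (11 probes) summed to between 24.3 and 64.4 in KLS and to between 0.674 and 1.29 in PreMegE. These sums move with several results below, and their part in those results was not tested. In sorted bulk samples, fewer cells of a type and less RNA per cell cannot be told apart. Xist, expressed from the inactive X chromosome, was between 3.90 and 5.61 on all GMP and Mac1Gr1 arrays and on replicates 1 and 2 of CFUe and PreGM. On all other arrays, replicate 3 of CFUe and PreGM included, it was between -7.47 and -4.47.

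The stretches before the annotated starts of 4 genes are shown because those genes carry the ISRE core there and rose into both mature fractions. Ifi44 is shown as the gene that did not rise, and the first bases of Ifitm3 because its cores lie after the start. Sequences are from RefSeq on GRCm38.p6, read along the gene, with capitals marking the ISRE core (GAAANNGAAA, or TTTCNNTTTC where it lies on the opposite strand).
Isg15, chr4:156200819-156200928, minus strand: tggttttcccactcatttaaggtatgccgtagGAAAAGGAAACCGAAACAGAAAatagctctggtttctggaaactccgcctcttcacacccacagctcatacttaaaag
Ifit1, chr19:34640759-34640888, plus strand: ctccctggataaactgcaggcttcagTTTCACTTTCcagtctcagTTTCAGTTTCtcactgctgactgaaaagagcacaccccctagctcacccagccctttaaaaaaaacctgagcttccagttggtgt
Ifit3, chr19:34583349-34583528, plus strand: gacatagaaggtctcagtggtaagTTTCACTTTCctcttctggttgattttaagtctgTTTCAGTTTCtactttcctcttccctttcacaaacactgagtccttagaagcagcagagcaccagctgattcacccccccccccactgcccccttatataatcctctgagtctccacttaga
Rsad2, chr12:26456453-26456592, minus strand: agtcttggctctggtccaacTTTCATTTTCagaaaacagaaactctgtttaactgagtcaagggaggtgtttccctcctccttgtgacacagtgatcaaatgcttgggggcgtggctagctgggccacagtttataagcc
Ifi44, chr3:151749911-151750040, minus strand: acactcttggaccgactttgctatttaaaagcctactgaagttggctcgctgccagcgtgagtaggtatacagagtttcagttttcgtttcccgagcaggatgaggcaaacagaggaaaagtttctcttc
Ifitm3, chr7:141010715-141010744, minus strand: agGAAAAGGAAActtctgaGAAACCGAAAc

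In Isg15 the core occurs 3 times in overlapping copies that begin at bases -78, -72 and -66 from the start. Ifit1 holds 2 copies, from -104 and -85, Ifit3 holds 2, from -156 and -122, and Rsad2 holds 1, from -120. In Ifitm3 the copies begin at bases 3 and 20 of the transcript, and a GAS match (TTCNNNGAA, the same on both strands) from base 14 overlaps the latter. Of the 8 members with a promoter in the table, 5 held an ISRE core within 250 bases before and 50 after the start, against 3.44% of 32851 promoters of that length. Oasl2, Ifit2 and Ifi44 held no exact match to the core in this window, although Oasl2 also rose into both mature fractions. A GAS match was found in 2 of 8, Ifitm3 and Ifit2, against 8.3% of promoters. Rtp4 and Usp18 had no entry. Among the other genes of the pathway, the ISRE core was found in 14 of 30 further type I interferon targets, 10 of 12 interferon gamma targets and 10 of 18 interferons. It was found in 3 of 12 sensors and adaptors of foreign nucleic acid and 2 of 10 class I antigen presentation genes. For receptors it was 0 of 5 and for the enzymes that attach Isg15 0 of 4, lists too short to set against the share of all promoters. A match is a description of letters and not of a bound site.

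**Figure D1:**
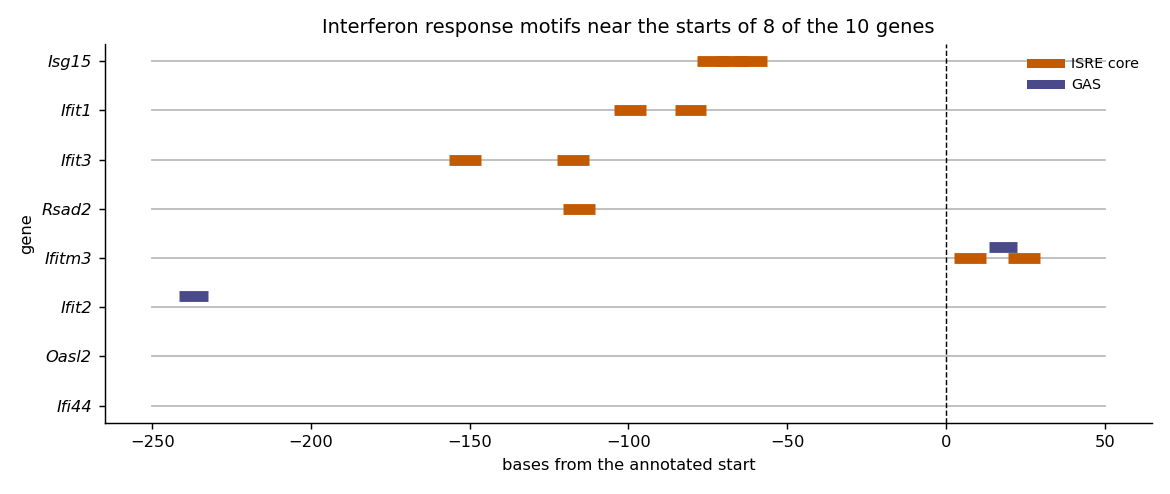
Positions of the ISRE core (orange) and the GAS motif (purple, drawn above the line) from 250 bases before to 50 bases after the annotated start of the 8 genes with a promoter entry, with distance in bases on the x axis. Isg15, Ifit1, Ifit3 and Rsad2 hold ISRE cores before the start and Ifitm3 after it, while Oasl2 and Ifi44 hold neither motif; for Ifit2, which has 2 annotated starts, the GAS match lies before one of them.

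Most of the genes were at intermediate levels in KLS, lower in the committed progenitors and highest in mature cells. With each gene centred on its own mean, the mean over the 10 genes started at 0.52 in KLS. It ran through -0.99 (PreMegE) and -1.14 (CFUe) to 1.69 (Ter119), and through -0.68 (PreGM) and -1.68 (GMP) to 2.27 (Mac1Gr1). Of the 10 genes, 7 had their highest mean in Mac1Gr1 and 2, Isg15 and Rsad2, in Ter119. Ifi44 alone was highest in KLS. The lowest mean lay in CFUe for 4 genes and in GMP for 3. Rtp4 was counted lowest in PreMegE through 1 spot in a dim patch of an array, described with that gene. Without the spot its PreMegE mean was 2.25 and GMP, at -0.18, was lowest. The spot also enters the PreMegE mean of -0.99. The fraction with the highest mean was the same under all 5 scalings tried for 9 genes, and for Ifit2 it moved to KLS under spike-in scaling. Across the 7 fraction means, pairs of genes without Ifi44 correlated with a median r of 0.77 (36 pairs, from 0.18 to 0.99). The 9 pairs with Ifi44 had a median of -0.12. These correlations share the same arrays and describe the 7 fractions only. In the order of levels, 28 of the 60 neighbouring fractions differed at an adjusted p under 0.05, with 0 of 6 for Rtp4, whose spread includes that spot. The order was set by these same means and no minimum fold was applied. No such count was made over all probes, so this count only describes the order within these genes.

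**Figure D2:**
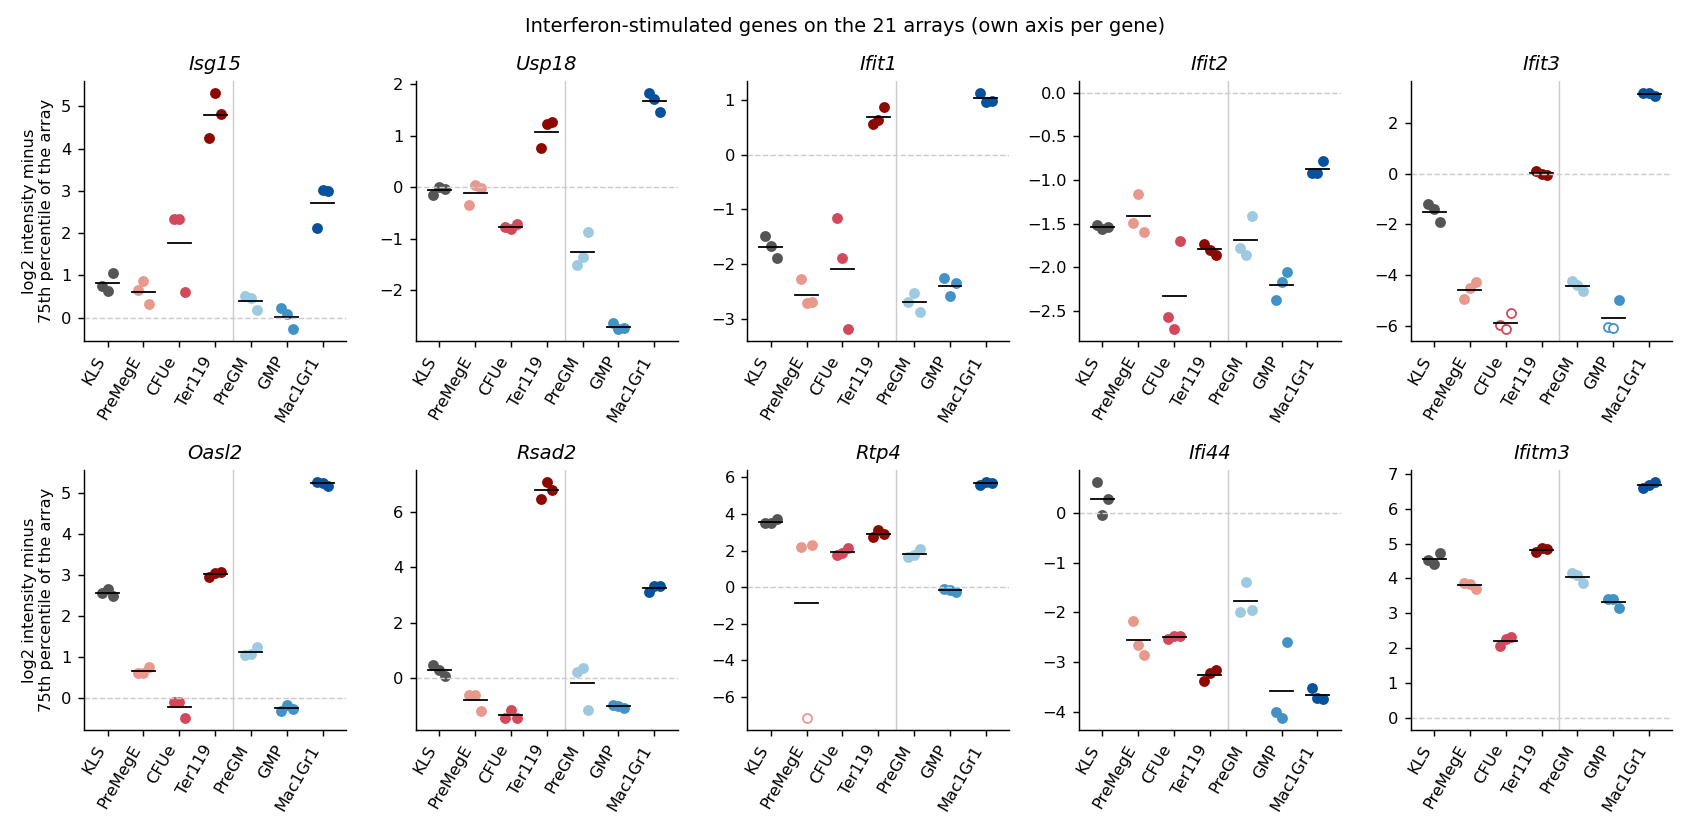
Levels of the 10 genes on each of the 21 arrays (log2 intensity minus the 75th percentile of the array, own axis per gene), with a bar at the mean of the 3 arrays, erythroid fractions in red and myeloid fractions in blue. Open circles mark spots not well above background. In all panels but that of Ifi44 the Mac1Gr1 points lie above the GMP points; the open circle far below the others in the Rtp4 panel is a spot in a dim patch of PreMegE replicate 2.

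The question behind the first steps was how expression changes as multipotent cells commit. Between KLS and PreMegE, 5 of the 10 genes fell and none rose. Ifit3, Ifi44, Oasl2, Rsad2 and Rtp4 were the genes that fell. Without KLS replicate 1 the calls of Rsad2 and Rtp4 were lost and 3 were left. Over all 29527 probes tested, 8.86% were called lower and 3.55% higher. The median change of the 10 genes was -0.97, against 0.13 over all probes. Between KLS and PreGM, 5 fell and none rose, against 6.52% of probes called lower and 2.11% higher. There the genes were Ifit3, Ifi44, Oasl2, Usp18 and Ifit1, with a median over the 10 genes of -1.10 against 0.06. Both steps share the KLS arrays. Macrophage markers fell with these genes on the erythroid side (sums as given above) and from at least 24.3 in KLS to at most 9.30 in PreGM on the myeloid side. C1qa, a complement gene of macrophages, was at 1.78 in KLS, -4.49 in PreMegE and -4.81 in PreGM. The part of such cells in these falls was not tested.

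Ifi44, an interferon-induced protein whose biochemical role is little understood, was the member with its highest mean in KLS. Its levels were 0.64, -0.04 and 0.30 on the KLS arrays, -2.16, -2.65 and -2.86 in PreMegE, and -1.99, -1.39 and -1.95 in PreGM. No KLS array overlapped with either progenitor. The change was -2.86 ± 0.31 (SE, n = 3 per fraction, adjusted p = 1.88e-06) to PreMegE and -2.08 ± 0.31 (adjusted p = 0.000132) to PreGM. In CFUe it was at -2.53, -2.48 and -2.47, and in Ter119 it was at -3.38, -3.23 and -3.17. In GMP it was at -4.01, -4.13 and -2.60, so that replicate 3 stood apart, and in Mac1Gr1 at -3.52, -3.72 and -3.74. All 21 spots were well above background, so Ifi44 was measurable in every fraction. The fall from PreGM to GMP was -1.80 ± 0.31 (adjusted p = 0.000339). From CFUe to Ter119 it was -0.77 ± 0.31 (adjusted p = 0.0328), under 2-fold, but called lower with quantile scaling (-1.48) and in the series table (-1.59).

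Ifit3, a partner of Ifit1 in binding foreign RNA, was called lower on both sides at the first and again at the second step. Its levels were -1.20, -1.40 and -1.93 in KLS, -4.93, -4.53 and -4.26 in PreMegE and -4.24, -4.40 and -4.62 in PreGM. The first changes were -3.06 ± 0.27 (adjusted p = 1.61e-07) and -2.91 ± 0.27 (adjusted p = 8.44e-07). In CFUe (-5.98, -6.14 and -5.51) no array was well above background, so the next fall was at least 1.23-fold (adjusted p = 0.000579). In GMP (-6.07, -6.09 and -4.97) only replicate 3 was above it, and the measured change was -1.29 ± 0.27 (adjusted p = 0.00172). With the normexp correction these changes were -0.09 and -0.62 and neither was called.

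Oasl2, a protein related to the oligoadenylate synthetases that activate RNA decay, fell at both first steps, with little spread between arrays. It was at 2.55, 2.66 and 2.49 in KLS, 0.61, 0.61 and 0.76 in PreMegE, and 1.03, 1.06 and 1.23 in PreGM. The changes were -1.91 ± 0.11 (adjusted p = 1.27e-09) and -1.46 ± 0.11 (adjusted p = 1e-07). CFUe (-0.10, -0.12 and -0.50) and GMP (-0.32, -0.17 and -0.27) were lowest and overlapped. The fall from PreGM to GMP was -1.36 ± 0.11, whereas that from PreMegE to CFUe, -0.89 ± 0.11 (adjusted p = 3.56e-06), was under 2-fold.

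Usp18, the protease that removes Isg15 from its targets and holds the type I receptor in check, differed between the sides from the start. It was at -0.15, 0.00 and -0.04 in KLS and at -0.34, 0.03 and -0.01 in PreMegE, which overlapped. In PreGM it was at -1.51, -1.36 and -0.87 and in GMP at -2.63, -2.76 and -2.74, below all erythroid-side arrays. From KLS to PreGM it fell by 1.19 (SE 0.17, adjusted p = 7.76e-05), which was under 2-fold with the Xist class as a block (-0.98) and with normexp. Between PreGM and GMP the change was -1.46 ± 0.17 (adjusted p = 5.51e-06). It was the only member called between PreMegE and PreGM, 1.14 ± 0.17 higher in PreMegE (adjusted p = 5.7e-05), where 5.81% of probes were called higher and 6.23% lower. With that block this became 0.93 and with normexp 0.94, both under 2-fold. Without PreGM replicate 3, Rsad2 was called as well (-1.09). On the 2 slides that held both fractions the differences were 1.55 and 0.86.

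Isg15, the ubiquitin-like protein that is attached to other proteins, took its own course on the erythroid side. It was at 0.74, 0.64 and 1.05 in KLS, at 0.67, 0.86 and 0.32 in PreMegE, and at 2.34, 2.33 and 0.60 in CFUe. Replicates 1 and 2 of CFUe were thus above all PreMegE arrays, and replicate 3, the array with low Xist, lay among them. The change was 1.14 ± 0.39 (adjusted p = 0.0208), and Isg15 was the only member that rose at this step, where Ifit3 and Ifitm3 fell (9.96% of probes higher, 14.7% lower). Without CFUe replicate 3, Ifit1 was also called higher (1.03) and Ifit2 lower (-1.23). Isg15 was at 0.46 (adjusted p = 0.363) with the Xist class as a block, and not called without CFUe replicate 1 (0.85), CFUe replicate 2 (0.86) or PreMegE replicate 3 (adjusted p = 0.0764). Quantile scaling gave 0.97 and spike-in scaling 0.62, also without a call. On the slide that held both fractions the difference was 1.66. On the myeloid side Isg15 was at 0.52, 0.47 and 0.19 in PreGM and at 0.23, 0.10 and -0.27 in GMP, with no call. CFUe was 1.74 ± 0.39 above GMP (adjusted p = 0.00115).

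At the second myeloid step 4 of 10 genes fell and none rose (6.36% of probes lower, 4.01% higher), namely Ifi44, Usp18, Oasl2 and Ifit3. The direction of this group depends on the scaling. When arrays were centred on the spike-in RNAs, the median of all probes moved from -0.02 to 0.99, and 1 gene, Ifit1, was called higher and none lower. Relative to that shift the median of the 10 genes was -1.04, as against -1.06 before. Slide 2 held an array of each fraction. On it GMP was lower for 9 of the 10 genes, by between 0.29 and 2.02, and higher for Ifit1. These are the same percentile-scaled levels, from 1 array per fraction already in the fit, so they cannot decide between the scalings. No such count over all probes is given for that slide.

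Between CFUe and GMP, Usp18 (1.94 ± 0.17), Isg15 (1.74) and Ifi44 (1.09 ± 0.31) were higher in CFUe and Ifitm3 was lower (-1.11 ± 0.12), against 12.1% of probes higher and 14.2% lower. Ifi44 was at 0.87 without GMP replicate 1, 0.81 without GMP replicate 2 and 0.76 with normexp, under 2-fold. Its call was lost in the fit blocked on slide (0.75, adjusted p = 0.144) and with CFUe and GMP fitted alone (adjusted p = 0.0782). Under spike-in scaling the median of all probes moved to -1.16 and 6 genes were called lower in CFUe and none higher, with Isg15 at 0.36 and Ifi44 at -0.30.

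The last steps led into Ter119 and Mac1Gr1, called mature here as the last fraction of each side, and most of the genes rose. Cell cycle markers (8 probes) summed to between 134 and 183 in Ter119, against 109 to 167 in CFUe. In Mac1Gr1 they summed to between 30.4 and 34.4, against 85.7 to 90.4 in GMP. From CFUe to Ter119, 7 of 10 rose and none fell, where 29.2% of all probes were called higher and 28.0% lower. The median change was 2.69 against 0.05 over all probes. From GMP to Mac1Gr1, 9 of 10 rose and none fell, against 29.1% higher and 27.6% lower, with a median of 3.83 against 0.17. Rsad2, Ifit3, Oasl2, Isg15, Ifit1, Ifitm3 and Usp18 rose at both steps, and Ifit2 and Rtp4 at the myeloid one. Under spike-in scaling the medians of all probes moved to -1.33 and -1.86. The calls were then 6 higher and 1 lower, and 7 higher and 1 lower, with Ifi44 called lower at both steps (-2.14 and -2.11), Usp18 no longer called in Ter119 (0.47) and Isg15 no longer in Mac1Gr1 (0.68). The granulocytic markers rose beside these genes on both sides, 12 of 12 at the erythroid step and 9 of 12 at the myeloid one, where 3 fell. Their part was not tested.

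**Figure D3:**
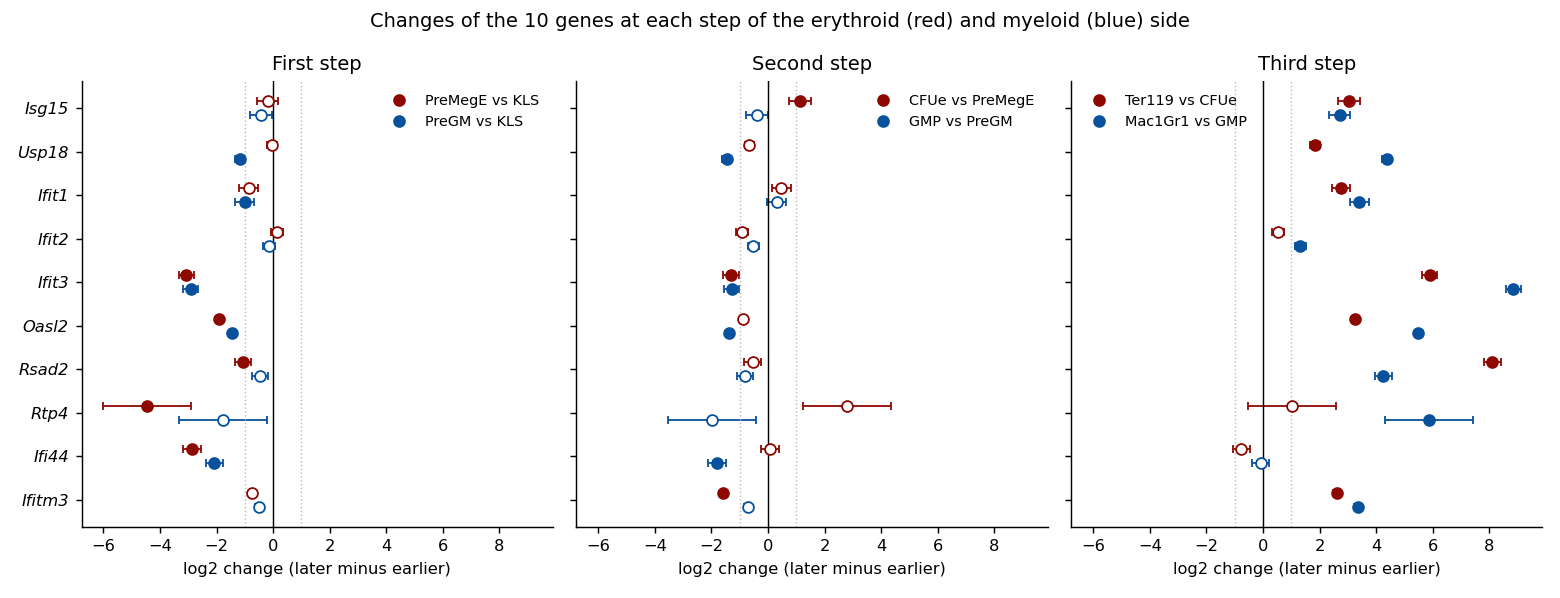
Log2 change of each gene (later minus earlier fraction, with its SE from the fit) at the 3 steps, erythroid in red and myeloid in blue. Filled points were called, open points were not, and dotted lines mark 2-fold. Points lie mostly left of 0 at the first and second step and mostly right of it at the third, where Rsad2 is further right on the erythroid side and Ifit3, Oasl2, Usp18 and Rtp4 are further right on the myeloid side.

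Rsad2 (viperin), an enzyme that makes a chain-terminating nucleotide against viral polymerases, rose on both sides and more on the erythroid one. It was at -1.43, -1.13 and -1.43 in CFUe and at 6.47, 7.10 and 6.78 in Ter119. The change was 8.11 ± 0.29, or 276-fold (adjusted p = 1.84e-13). The slide that held both fractions gave 8.20. In GMP it was at -0.95, -0.99 and -1.05 and in Mac1Gr1 at 3.13, 3.34 and 3.31, a change of 4.26 ± 0.29 (adjusted p = 5.62e-10). Ter119 exceeded Mac1Gr1 by 3.52 ± 0.29 (adjusted p = 1.87e-08) with no overlap. The other probes of Rsad2 ran the same way, with means of 5.27 ± 0.22 and 3.51 ± 0.17 (SD, n = 3) in Ter119 against 1.07 ± 0.05 and -0.21 ± 0.28 in Mac1Gr1. Before maturity Rsad2 varied less, at 0.47, 0.29 and 0.10 in KLS and -0.60, -0.59 and -1.17 in PreMegE. That fall of 1.07 (SE 0.29, adjusted p = 0.0111) was no longer called without KLS replicate 1 (-0.98) or PreMegE replicate 3 (-0.88), with its second probe (-0.94), with normexp (-0.99) or in the fit blocked on slide (adjusted p = 0.152). In PreGM replicates 1 and 2 were at 0.22 and 0.39 and replicate 3, with low Xist, at -1.13. Without that array Rsad2 fell from PreGM to GMP by 1.30 (adjusted p = 0.000147).

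Isg15 also rose at both steps. Ter119 arrays were at 4.25, 5.32 and 4.81 and Mac1Gr1 arrays at 2.13, 3.03 and 3.01. Its changes were 3.04 ± 0.39 from CFUe (adjusted p = 1.65e-06) and 2.71 ± 0.39 from GMP (adjusted p = 6.58e-06). Ter119 exceeded Mac1Gr1 by 2.07 ± 0.39 (adjusted p = 0.000169). Every Ter119 array was above every Mac1Gr1 array for Isg15 and Rsad2.

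Ifit3 was instead highest in Mac1Gr1. It was at 0.12, -0.01 and -0.06 in Ter119 and at 3.17, 3.19 and 3.08 in Mac1Gr1, 3.13 ± 0.27 lower in Ter119 (adjusted p = 2.7e-08). Since CFUe was below background, the rise to Ter119 was at least 29.5-fold (adjusted p = 2.8e-12). From GMP, where 1 array of 3 was above background, the measured change was 8.86 ± 0.27 (adjusted p = 2.92e-14). Ifit3b, a near copy whose probe could share target with that of Ifit3, was at least 2.35-fold higher in Ter119 than in CFUe, where it was below background, and rose by 5.89 ± 0.84 into Mac1Gr1. Its separate contribution was not tested.

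Oasl2 reached 2.95, 3.04 and 3.06 in Ter119 and 5.27, 5.24 and 5.18 in Mac1Gr1. It rose by 3.26 ± 0.11 and 5.49 ± 0.11 (adjusted p = 9.65e-14 and 5.87e-16). Ifitm3, a membrane protein that stops viruses fusing with endosomes, was far above the 75th percentile throughout, from 2.07 on a CFUe array to 6.77 on a Mac1Gr1 array. It fell by 1.59 from PreMegE to CFUe (SE 0.12, adjusted p = 1.04e-08). Its rise into Ter119 was 2.61 ± 0.12, and on the myeloid side 3.35 ± 0.12. Usp18 reached 0.75, 1.22 and 1.26 in Ter119 and 1.83, 1.72 and 1.46 in Mac1Gr1, having risen by 1.84 ± 0.17 and 4.37 ± 0.17. For Oasl2, Ifitm3 and Usp18 all Mac1Gr1 arrays were above all Ter119 arrays, but the Usp18 difference, -0.59 ± 0.17 (adjusted p = 0.00496), was under 2-fold.

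Ifit1, which recognises RNA with foreign cap structures, rose on both sides and was not called different between the mature fractions. It was at 0.55, 0.63 and 0.87 in Ter119 and 1.12, 0.96 and 0.98 in Mac1Gr1, a difference of -0.34 ± 0.33 (adjusted p = 0.374), after rises of 2.76 and 3.41. In CFUe its arrays spread over 2 units (-1.16, -1.88 and -3.18), with replicate 3 lowest as for Isg15. Its fall from KLS to PreGM, -1.01 ± 0.33 (adjusted p = 0.0306), lay at the edge of the call and was lost without KLS replicate 1 or 2 or any PreGM array (-0.92 to -1.10), and in the fit blocked on slide (-1.42, adjusted p = 0.0506). Ifit2, of the same family, moved least of the 10, from -2.71 on a CFUe array to -0.78 on a Mac1Gr1 array. It rose from GMP to Mac1Gr1 by 1.33 ± 0.20 (adjusted p = 1.51e-05). Its other probe gave 0.48, under 2-fold, and spike-in scaling turned the change to -0.71.

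Rtp4, a zinc finger protein that assists the traffic of receptors, needs its values with and without 1 spot. It was at 2.21 and 2.28 on PreMegE replicates 1 and 3 and at -7.16 on replicate 2. That spot carried no flag, but 31 of the 81 spots around it were at least 2 log2 units below those of the other PreMegE arrays, against 0.853% of all spots of that array. With the spot, the residual SD of Rtp4 was 2.06 on the log2 scale, and without it 0.16. The levels elsewhere were tight, at 3.50, 3.52 and 3.70 in KLS, 1.74, 1.88 and 2.11 in CFUe, and 2.73, 3.14 and 2.89 in Ter119. On the myeloid side they were 1.62, 1.75 and 2.07 in PreGM, -0.11, -0.14 and -0.28 in GMP, and 5.61, 5.77 and 5.68 in Mac1Gr1. With the spot included, Rtp4 was called lower in PreMegE than in KLS (-4.46 ± 1.56, adjusted p = 0.0437) and higher in Mac1Gr1 than in GMP (5.86 ± 1.56, adjusted p = 0.00263), and nowhere else. In the fit blocked on slide neither was called (adjusted p = 0.234 and 0.098). Without it the first was -1.33 ± 0.15 (adjusted p = 6.47e-06). Rtp4 also fell from KLS to PreGM (-1.76) and from PreGM to GMP (-1.99), and rose from CFUe to Ter119 (1.01 ± 0.14, adjusted p = 5.25e-06). It was 2.09 higher in CFUe than in GMP and 2.76 lower in Ter119 than in Mac1Gr1. The members called then numbered 8 from CFUe to Ter119, 6 from KLS to PreGM, 5 from PreGM to GMP and 5 between CFUe and GMP, and the number from KLS to PreMegE stayed at 5.

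Set side by side, the mature fractions differed in which genes stood high. Rsad2 and Isg15 were higher in Ter119, and Ifit3, Oasl2 and Ifitm3 in Mac1Gr1 (2 higher and 3 lower of 10, against 22.0% and 19.9% of probes). Without the Rtp4 spot, Rtp4 joined the lower group. Under spike-in scaling 2 were higher and 6 lower, the added ones being Ifit2, Usp18 and Rtp4. Ifit2, at -0.92 ± 0.20, was also called lower with quantile scaling (-1.24), in the series table (-1.32) and with the Xist class as a block (-1.60). The granulocytic list had a median difference of -0.65, with 2 of 12 genes called each way. B cell and T and NK cell markers were higher in Ter119 (7 of 7 and 8 of 10 called). Markers of plasmacytoid dendritic cells (8 probes), known as strong producers of type I interferon, summed to between 39.8 and 48.9 in Ter119 and between 8.2 and 13.7 in Mac1Gr1. Their sum was highest in PreGM (62.3 to 64.4) and was 44.8 to 52.9 in GMP. By single genes, 5 of the 8 had their highest mean in Ter119, 2 in PreGM and 1 in KLS. Siglech, 1 of that list, was at -0.99 in Ter119 and -4.16 in Mac1Gr1 and not well above background in the other fractions. The part of these cells was not tested.

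**Figure D4:**
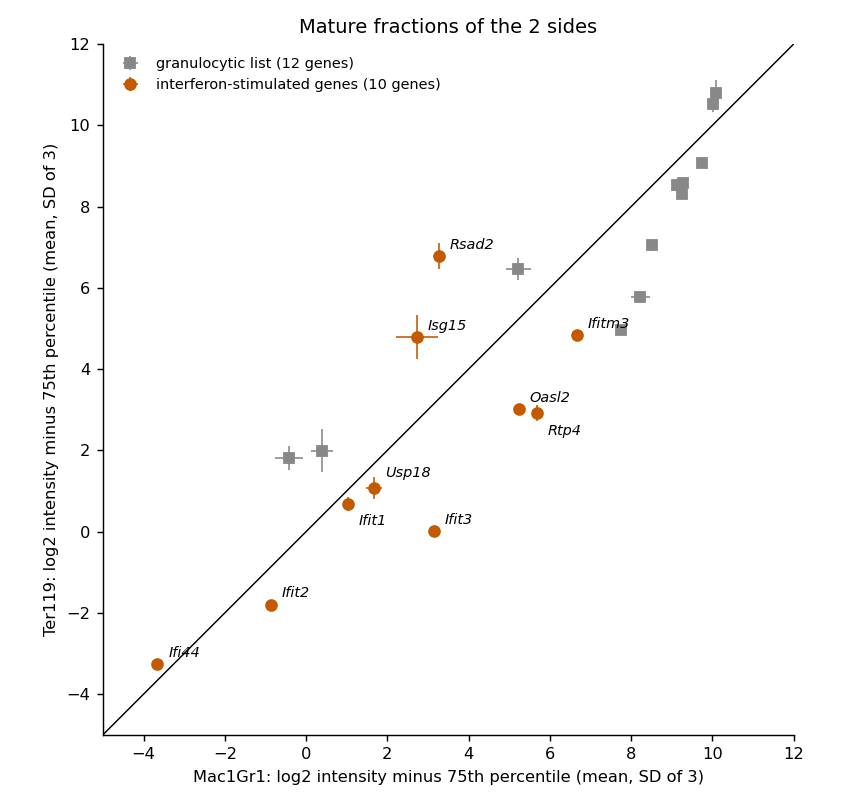
Mean level in Ter119 (y axis) against Mac1Gr1 (x axis), in log2 intensity minus the 75th percentile with the SD of 3 arrays, for the 10 interferon-stimulated genes (orange) and the 12 granulocytic genes (grey). The line marks equal levels; Rsad2 and Isg15 lie 3.52 and 2.07 above it, and Ifit3, Rtp4, Oasl2 and Ifitm3 lie 3.13, 2.76, 2.21 and 1.85 below it. Levels of different genes are not comparable, as each rests on its own probe.

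Whether the same step changed a gene differently on the 2 sides was tested directly. At the last step the rise of Rsad2 was 3.85 ± 0.41 larger on the erythroid side (adjusted p = 6.78e-07). The rises of Ifit3 (-2.96 ± 0.38), Usp18 (-2.53 ± 0.24) and Oasl2 (-2.23 ± 0.16) were larger on the myeloid side, against 20.9% of probes called in the erythroid direction and 19.0% in the other. Ifit3 was at or near background in both starting fractions. Isg15, 0.33 ± 0.55 (adjusted p = 0.64), and Ifit1, -0.65 ± 0.46 (adjusted p = 0.25), were not called, which does not show that they changed alike. Without CFUe replicate 3 Ifit1 was called (-1.20), and without GMP replicate 3 Ifi44 (-1.18). Ifi44 was also called with quantile scaling (-1.07) and in the series table (-1.14). Ifit2, at -0.80 and under 2-fold, was called with quantile scaling (-1.18), in the series table (-1.29) and with the Xist class as a block (-1.25). At the second step Ifi44 (1.87 ± 0.44) and Isg15 (1.52 ± 0.55) were called, and none the other way, where 8.38% and 11.8% of probes were called. The Isg15 call was lost without CFUe replicate 1 or 2, GMP replicate 2 or 3, PreGM replicate 1 or 2, or PreMegE replicate 1 or 3. Adjusted p then lay between 0.0592 and 0.111. It was also lost without the filter on dim probes (adjusted p = 0.0621) and with the compared fractions alone (adjusted p = 0.0664). Ifitm3, at -0.87 ± 0.17, was under 2-fold at this step but was called in the myeloid direction with quantile scaling (-1.08) and in the series table (-1.11). Under spike-in scaling the calls at this step became 0 in the erythroid direction and 4 in the other, as the median of all probes moved to -1.39. Without the Rtp4 spot, Rtp4 differed by 1.66 at the second step and -4.85 at the last.

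The pathway around these genes was described from lists of its parts. Further type I interferon targets (32 tested of 40 listed) rose for the most part on the myeloid side. From GMP to Mac1Gr1 26 rose and 3 fell, against 29.1% of all probes called higher and 27.6% lower. The median change was 2.21, against 0.17 over all probes, and 25 of the 32 had their highest mean in Mac1Gr1. From CFUe to Ter119 16 rose and 2 fell, against 29.2% and 28.0% of all probes (median 1.09 against 0.05). Ter119 was the highest fraction for 1 gene only, Isg20. This exonuclease, which degrades single-stranded RNA, was at 6.32 in Ter119 and 2.21 in Mac1Gr1, a difference of 4.11 ± 0.17 (adjusted p = 3.03e-12). In the direct comparison 17 of the 32 were lower in Ter119 than in Mac1Gr1 and 2 higher, against 19.9% and 22.0% of all probes. Between KLS and PreMegE 8 fell and none rose, against 8.86% of all probes lower and 3.55% higher. Between KLS and PreGM 6 fell and none rose, against 6.52% and 2.11%. Oas2, a synthetase that starts RNA decay, fell by 1.83 (SE 0.14) and by 2.52 (SE 0.14) at these steps and rose by 6.37 ± 0.14 into Mac1Gr1. Ifi27l2a rose by 9.76 ± 0.43 into Ter119 and by 7.53 ± 0.43 into Mac1Gr1, and Slfn5, of the Schlafen family, by 6.58 ± 0.26 into Mac1Gr1 and at least 37.8-fold from background in CFUe into Ter119.

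**Figure D5:**
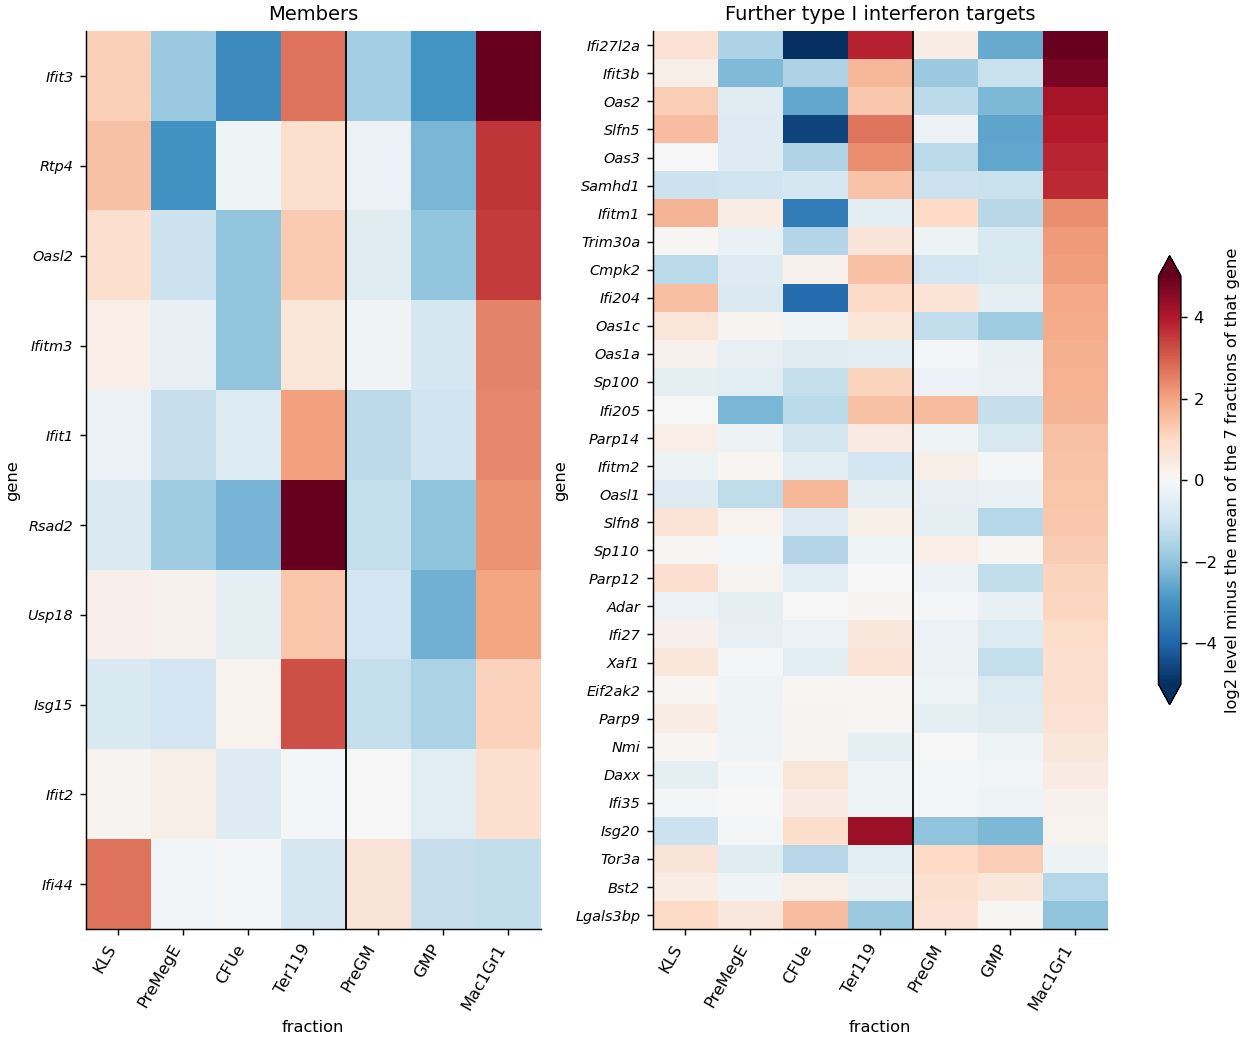
Fraction means of each gene minus the mean of its 7 fractions (log2 scale, colours saturate at 5) for the 10 members and the 32 further type I interferon targets tested, each panel sorted by the Mac1Gr1 value. The Mac1Gr1 column is red for most genes of both panels, and Rsad2, Isg15 and Isg20 are redder in Ter119, by 3.52, 2.07 and 4.11; the PreMegE value of Rtp4 includes the dim spot.

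Of the 4 enzymes that attach Isg15, 3 rose beside it in Ter119, where 29.2% of all probes were called higher. Uba7, the activating enzyme, rose by 2.11 ± 0.13, Herc6, the ligase of the mouse, by 1.29 ± 0.12, and Ube2l6, the conjugating enzyme, by 5.06 ± 0.20 (adjusted p = 4.57e-13). Trim25, another ligase, was at -0.17 ± 0.13. Ube2l6 stood 5.41 ± 0.20 higher in Ter119 than in Mac1Gr1 (adjusted p = 7.97e-13), with fraction means of 5.55 and 0.14. From GMP to Mac1Gr1, Uba7 and Ube2l6 rose, by 2.24 ± 0.13 and 2.46 ± 0.20. In the list of other genes that dampen the signal, 4 of 7 were higher in Mac1Gr1 than in GMP (29.1% of all probes). In Ter119, 3 were higher than in CFUe and 1 lower, against 29.2% and 28.0% of all probes. Socs3, which blocks Jak kinases, fell by 2.46 (SE 0.34) from KLS to PreMegE and rose by 6.07 ± 0.34 into Ter119 and by 2.67 ± 0.34 into Mac1Gr1. Socs1 rose by 3.03 ± 0.21 and 2.28 ± 0.21, and the phosphatase Ptpn6 by 1.40 ± 0.14 and 2.44 ± 0.14. Ptpn1 rose by 2.26 ± 0.12 in Mac1Gr1, Ptpn2 fell by 1.22 (SE 0.10) in Ter119, and Ptpn11 and Pias1 were not called at either step.

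The signalling genes were measured at the same steps. From GMP to Mac1Gr1, where 29.1% of all probes were called higher, Stat2 rose by 1.90 ± 0.14, Irf9 by 2.68 ± 0.12, Jak1 by 1.97 ± 0.12 and Jak2 by 1.02 ± 0.16, and Tyk2 was at -0.60 ± 0.19, under 2-fold. From CFUe to Ter119 Tyk2 fell (-1.30 ± 0.19), while Stat2 and Irf9 were at 0.89 ± 0.14 and 0.70 ± 0.12, under 2-fold. The difference between the sides was called for Irf9 (-1.98 ± 0.17), Jak1 (-1.61 ± 0.17), Jak2 (-1.21 ± 0.22) and Stat2 (-1.01 ± 0.20). Jak2 was 1.10 ± 0.16 higher in PreMegE than in KLS. Receptor chains rose in 4 of 6 cases from GMP to Mac1Gr1 (29.1% of all probes) and in 5 of 6 from CFUe to Ter119 (29.2%). Ifnar1 rose by 1.02 ± 0.13 and 1.82 ± 0.13, and Ifngr2 by 2.41 ± 0.21 and 1.41 ± 0.21. Il10rb rose by 2.28 ± 0.15 and 1.53 ± 0.15. Ifnlr1, the receptor for type III interferon, rose at least 1450-fold into Mac1Gr1, from background in GMP, and by 5.88 ± 0.40 into Ter119. Ifnar2 rose by 1.01 ± 0.13 in Ter119 and was at 0.71 ± 0.13 in Mac1Gr1. Ifngr1 fell by 1.12 (SE 0.15) in Ter119.

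Ligand probes were mostly dim. Of 19 listed ligands 12 had a probe and 9 were tested. Ifnb1 was well above background on 5 of 21 arrays. Its means were -3.50 in PreGM and -3.28 in GMP and between -6.91 and -6.37 in the other fractions, and it was at least 3.82-fold higher in PreGM than in KLS, with 2 of 3 PreGM arrays above background, and at least 2.73-fold lower in Mac1Gr1 than in GMP. Ifng, made by T and NK cells, was at 0.29 in Ter119 and -3.32 in Mac1Gr1. It was at least 35.6-fold higher in Ter119 than in CFUe, where it was below background, and rose by 3.40 ± 0.50 from GMP to Mac1Gr1. Among the interferon regulatory factors, Irf7, the amplifier of type I interferon, fell by 1.56 (SE 0.20) from KLS to PreGM and rose by 5.09 ± 0.20 into Mac1Gr1 and by 2.16 ± 0.20 into Ter119. Irf5 and Irf8 rose by 6.21 ± 0.24 and 7.89 ± 0.60 into Ter119, Irf4 rose at least 72.7-fold, and Irf8 fell by 2.66 (SE 0.60) into Mac1Gr1.

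Interferon gamma targets (16 tested of 18) did not share one course. From GMP to Mac1Gr1 7 rose and 5 fell, where 29.1% of all probes were called higher and 27.6% lower, and from CFUe to Ter119 7 rose and 2 fell, against 29.2% and 28.0%. From KLS, 7 fell and none rose in PreMegE, against 8.86% of all probes lower and 3.55% higher. In PreGM 6 fell and 1 rose, against 6.52% and 2.11%. Cxcl10, a chemokine for T cells, had its highest mean in GMP, at 6.30, against 0.28 in Mac1Gr1 and -0.81 in Ter119. Iigp1, a GTPase against intracellular parasites, was highest in KLS at 1.31 and lowest in GMP at -3.94. Class I antigen presentation genes (12 tested) gave few calls, with 2 higher and 2 lower in Mac1Gr1 than in GMP, 1 higher and 2 lower in Ter119 than in CFUe, and none called at either first step. Sensors and adaptors of foreign nucleic acid (14 tested of 16) gave 7 higher and 3 lower in Mac1Gr1 and 8 higher and none lower in Ter119. Ddx58, which encodes the RNA sensor RIG-I, had means of 1.37 in KLS, -1.22 in CFUe, 1.68 in Ter119, -1.13 in GMP and 3.09 in Mac1Gr1. Sting1, the adaptor of DNA sensing, was instead highest in PreGM at 4.09 and lowest in CFUe at -2.38.

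The pattern most like the mean course of the members, by Pearson's r over 7 fraction means among 13334 genes, was that of Ifi27 (0.9911), itself a type I interferon target. Spata31d1a (0.9901), Prr5l (0.9868), Chil5 (0.9826) and Slc37a2 (0.9817) followed. The mean course includes the dim Rtp4 spot in PreMegE, and the ranking, with values this close, was not repeated without it. Ifi27 moved over a narrow range, from 4.30 in GMP to 5.90 in Mac1Gr1, and Chil5, a chitinase-like protein, over a wide one, from -6.64 in CFUe to 3.68 in Mac1Gr1.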

How the data were processed

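Deposited scanner files give a linear intensity per spot, background-corrected by the authors in Agilent Feature Extraction (10.7.1.1; Cy3 only). The authors' deposited table of the whole series is in log2, equalised across arrays in a way not given in the sources used here, and was an alternative. Column medians lay between 6.154 and 6.23.

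Values were log2 intensity minus the 75th percentile of each array. Between 80 and 283 outlier spots per array were left out, no spot was saturated, and spots of a probe were averaged (41174 probes, 26690 with a symbol from RefSeq accessions, GRCm38.p6 names). The 29527 probes well above background throughout some fraction (3 of 3 arrays) entered 1 two-sided fit of all 7 fractions in R 4.3.3 (limma 3.58.1, lmFit then eBayes, 14 residual degrees of freedom, Benjamini-Hochberg over all probes per comparison). Adjusted p values are from this fit unless an alternative is named. For a group below background the fold is a lower bound: the bright mean was set against the mean, per array, of the higher of the dim signal and the lowest signal well above background.

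The probe annotation names the build mm9, so no probe coordinates are given. The members and lists were chosen with earlier results of these data known. Named genes are the 10 members, the receptor, signalling, ISGylation and feedback genes, up to 5 genes of every other pathway list (largest range of means), and the 5 genes of most similar course; Ly6a, Xist, C1qa and Siglech were named after their values were seen. Alternatives were quantile and spike-in scaling (7 spike-in probes), normexp (offset 50, on median pixel intensity), no filter, no minimum fold, a block for slide (9 slides) or for replicate number, the table of the whole series, another probe, fits of only the fractions compared, and omission of single arrays. A block for the Xist class and the removal of the Rtp4 spot were chosen after seeing the data. That block rests on CFUe and PreGM alone, the fractions with arrays of both Xist classes. Some results of the signalling list are not reported here. Figures were drawn with matplotlib 3.10.9.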

Additional observations from a re-analysis of the deposited data

Results flagged for a closer look

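The change at the same step differed between the erythroid and the myeloid side, by a test of the difference itself (limma, adjusted over all probes), for 6 values. At the second step the difference, erythroid minus myeloid, was 1.87 for Ifi44 (SE 0.44, adjusted p = 0.00312), which fell from PreGM to GMP and stayed level from PreMegE to CFUe. It was 1.52 for Isg15 (SE 0.55, adjusted p = 0.0406). The Isg15 call was lost when any of several single arrays was left out, for instance CFUe replicate 1 (1.23, adjusted p = 0.106). At the last step the difference was 3.85 for Rsad2, -2.96 for Ifit3, -2.53 for Usp18 and -2.23 for Oasl2, all of which rose on both sides. CFUe holds 2 arrays of high Xist and 1 of low, GMP 3 of high, Ter119 3 of low and Mac1Gr1 3 of high, and with the Xist class as a block the Isg15 difference was 1.18 (adjusted p = 0.0572). With that block the other differences were still called, at 1.83 for Ifi44, 4.38 for Rsad2, -3.04 for Ifit3, -2.74 for Usp18 and -2.16 for Oasl2. The block was estimated only from CFUe and PreGM, which hold arrays of both classes. In every other fraction all arrays share a class, so there class and fraction cannot be told apart.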

How the results depend on the processing

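Of the 49 calls among the 110 values of members in the 11 comparisons, 43 were kept with each array left out in turn, and 29 under all alternatives, spike-in scaling included. Under spike-in scaling the members called became 6 (none higher) for CFUe vs PreMegE, 1 (higher) for GMP vs PreGM, 6 (none higher) for CFUe vs GMP, 8 for Ter119 vs Mac1Gr1 and 4 (none higher) at the second step between the sides. That scaling turned Ifit2 in Mac1Gr1 vs GMP to -0.71, Ifit1, Oasl2 and Ifi44 in CFUe vs GMP to -1.07, -1.36 and -0.30, and Isg15 and Oasl2 at the second step to -0.0141 and -1.06. The cause was not tested. Normexp left 3 calls in PreGM vs KLS and 0 in PreMegE vs PreGM (in place of 5 and 1). Without the minimum fold 6, 2 and 5 were called in CFUe vs PreMegE, PreMegE vs PreGM and the second step. The second step gave 1 call without the filter on dim probes, with the compared fractions alone or with the Xist class as a block, which left 0 in PreMegE vs PreGM. Without the Rtp4 spot it gave 3. With arrays left out in turn the calls ranged from 3 to 5 in PreMegE vs KLS (3 without KLS replicate 1), 2 to 5 in CFUe vs PreMegE (5 without CFUe replicate 3), 7 in Ter119 vs CFUe, 4 to 5 in PreGM vs KLS, 4 to 5 in GMP vs PreGM, 9 in Mac1Gr1 vs GMP, 1 to 2 in PreMegE vs PreGM, 3 to 4 in CFUe vs GMP, 5 in Ter119 vs Mac1Gr1, 1 to 3 at the second step and 4 to 5 at the last. Replicate numbers did not pair the arrays (median correlation of deviations 0.0024 over 63 same-numbered pairs, 21 of them over 0.1), and the replicate block left all counts as they were, for instance 7 in Ter119 vs CFUe and 9 in Mac1Gr1 vs GMP. Low signal limits Ifit3 in CFUe and GMP.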
